A study of Mus musculus with 4 samples.

Results

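Ly6a, Ly6c2 and Ly6e encode 3 small surface proteins of the Ly6 family, and they are described here in immune cells of mouse mammary tumours treated with an interleukin 12 (IL-12) plasmid or a control plasmid. They are 3 of the 11407 genes in each of the authors' expression tables, and were chosen by name after earlier results of these data were known. Their levels across cell clusters, libraries and T cell clone sizes were part of that choice, so every difference below is a description and none was tested. The IL-12 group received an intratumoral injection of IL-12 plasmid and the control group one of control plasmid, both followed by electroporation, per the labels. Live CD45-positive cells, that is leukocytes, were sorted from the tumours, and the cells of 3 mice were pooled for each treatment. Each pool gave 1 gene expression library, so no difference between treatments has a replicate check. The control table names its treatment an isotype, although the labels give a control plasmid. The labels also differ on the tumour: the series title and design name triple-negative tumours, the tables call their libraries 4T1, a BALB/c mammary carcinoma line, while HER2 induction in mice aged 1 month is given under growth. No mouse strain is given in the labels for either library.

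Depth was counted in unique molecular identifiers (UMIs), each standing for 1 captured transcript. There were 59956933 in the 12979 cells of the IL-12 table, at a median of 3418, and 17306854 in the 4232 cells of the control table, at a median of 3021. Of the cell barcodes, 87 occurred in both tables. Levels are UMIs of a gene per 1000000 UMIs of the same cells (CPM). Brackets give exact 95% intervals, from the Poisson distribution for levels and folds and from the binomial for shares, and cover counting error only.

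Ly6 proteins are short, cysteine-rich chains folded into loops and held on the outer cell membrane by a glycosylphosphatidylinositol (GPI) lipid anchor instead of a membrane-spanning stretch. Ly6a encodes Sca-1, a marker of mouse blood stem cells that is also carried by activated lymphocytes, and Ly6c2 encodes a form of Ly6C, which marks inflammatory monocytes and memory or effector CD8 T cells. Ly6e encodes a broadly expressed relative first described on thymocytes. Transcripts of all 3 are known to be raised by interferons, and IL-12 is best known for driving interferon-gamma production by T cells and NK cells. Inbred mouse strains carry different Ly6 alleles, and the level of Sca-1 on their lymphocytes is known to differ between strains.

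The members lie together on mouse chromosome 15, within 156.9 kb in the GENCODE annotation of GRCm38. Ly6e lies at chr15:74955051-74959905 on the plus strand, Ly6a at chr15:74994877-74998031 on the minus strand and Ly6c2 at chr15:75108158-75111970 on the minus strand. Between Ly6a and Ly6c2 lies Ly6c1, at chr15:75044018-75048830 on the minus strand. Ly6c1 is a near-copy of Ly6c2. Their coding sequences are both 393 bases long and differ at 9 positions, which is 97.7% identity. The libraries were made from transcript 5′ ends, where this likeness decides which gene a read can be counted for. Of all 60-base windows within the first 300 bases of annotated transcripts, 31.5% of Ly6c2 windows also occurred in Ly6c1. For Ly6a, 22.2% of such windows occurred in another gene, mostly Ly6c1, and for Ly6e 0.0% did. Values of Ly6c2, and to a lesser degree of Ly6a, are therefore uncertain as to which near-copy gave the reads. The first 75 coding bases are shown for these genes because the difference between Ly6c1 and Ly6c2 counts is reported below. Capitals mark bases that differ from Ly6c2, and in the Ly6c2 line those that differ from Ly6c1.
Ly6a: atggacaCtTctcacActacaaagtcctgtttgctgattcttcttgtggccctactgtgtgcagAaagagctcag
Ly6c1: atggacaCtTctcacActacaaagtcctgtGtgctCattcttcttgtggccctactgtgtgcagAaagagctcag
Ly6c2: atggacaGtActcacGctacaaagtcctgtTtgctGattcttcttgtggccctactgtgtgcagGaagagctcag
These 3 genes thus begin with almost the same letters, whereas Ly6e differs from Ly6c2 at 41 of these 75 positions in an ungapped comparison.

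RefSeq's promoter table (GRCm38.p6) held 1 of the 3 members, Ly6c2. Of the 3 members, Ly6c2 also had the highest IL-12 over control ratio over all sorted cells. The 250 bases before its start are shown because no other member had an entry. They lie at chr15:75111972-75112221 on the minus strand, and capitals mark the letters AGGAAGT.
Ly6c2: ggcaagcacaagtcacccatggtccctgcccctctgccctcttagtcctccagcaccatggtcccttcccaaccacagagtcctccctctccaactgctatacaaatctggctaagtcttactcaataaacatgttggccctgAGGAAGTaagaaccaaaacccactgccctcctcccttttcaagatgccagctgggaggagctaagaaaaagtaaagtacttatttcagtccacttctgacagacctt
On either strand this window held 0 matches to a form of the type I interferon response element, the letters GAAA, any 2 bases and GAAA, which 2.98% of all 32851 promoter windows of this length held. AGGAAGT, a letter string around the core that ETS-family factors bind, was picked after the sequence was seen. It occurs 1 time here, at position -107 from the start, and in 7.69% of all windows. The table has another Ly6c2 entry, which puts the start at position 75111937. Its window overlaps this one and holds 2 matches to AGGAAGT, where 0.40% of all windows hold at least 2, and 0 matches to the interferon element. These are matches of letters in short windows, and no binding was measured. As AGGAAGT was picked after the sequence was seen, no rarity is read from its shares of all windows.

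Across all sorted cells, all 3 members were higher in the IL-12 library. Ly6a stood at 441 CPM (436 to 447) in IL-12 cells, against 78.5 CPM (74.4 to 82.8) in control cells, a ratio of 5.62-fold (5.32 to 5.94). Ly6c2 stood at 314 CPM (309.6 to 319) in IL-12 cells and 46.5 CPM (43.3 to 49.8) in control cells, a ratio of 6.76-fold (6.30 to 7.26). Ly6e stood at 674 CPM (668 to 681) in IL-12 cells and 285 CPM (277 to 293) in control cells, a ratio of 2.37-fold (2.30 to 2.44). By ratio, Ly6c2 ranked 9, Ly6a 10 and Ly6e 109 of 5366 measured genes, taken as those whose UMIs came to at least 50 in all and were found in 5% or more of either library's cells. All 3 were at least 1.5-fold higher, the size called higher here, as were 14.4% of measured genes, while the median gene had a log2 ratio of -0.11. Cell type shares also differed between the libraries. Neutrophils made up 45.5% of IL-12 cells and 64.3% of control cells, and CD8 T cells 25.1% of IL-12 cells and 15.3% of control cells. With IL-12 cells weighted to the control library's shares of the authors' classes, the ratios were 4.34-fold for Ly6a, 6.10-fold for Ly6c2 and 2.43-fold for Ly6e. By cluster shares they were 3.65-fold for Ly6a, 5.65-fold for Ly6c2 and 2.44-fold for Ly6e. Without cells holding markers of another class the log2 ratios over all sorted cells were 4.14 for Ly6a, 3.17 for Ly6c2 and 1.38 for Ly6e, against 2.48, 2.73 and 1.24 with them. That filter also changed the mix of cells. Of the cells left, 2280 of 2361 in the control library and 4635 of 7527 in the IL-12 library were neutrophils. Neutrophils had the least Ly6a of the large classes, so these ratios do not set like cells side by side.

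**Figure D1:**
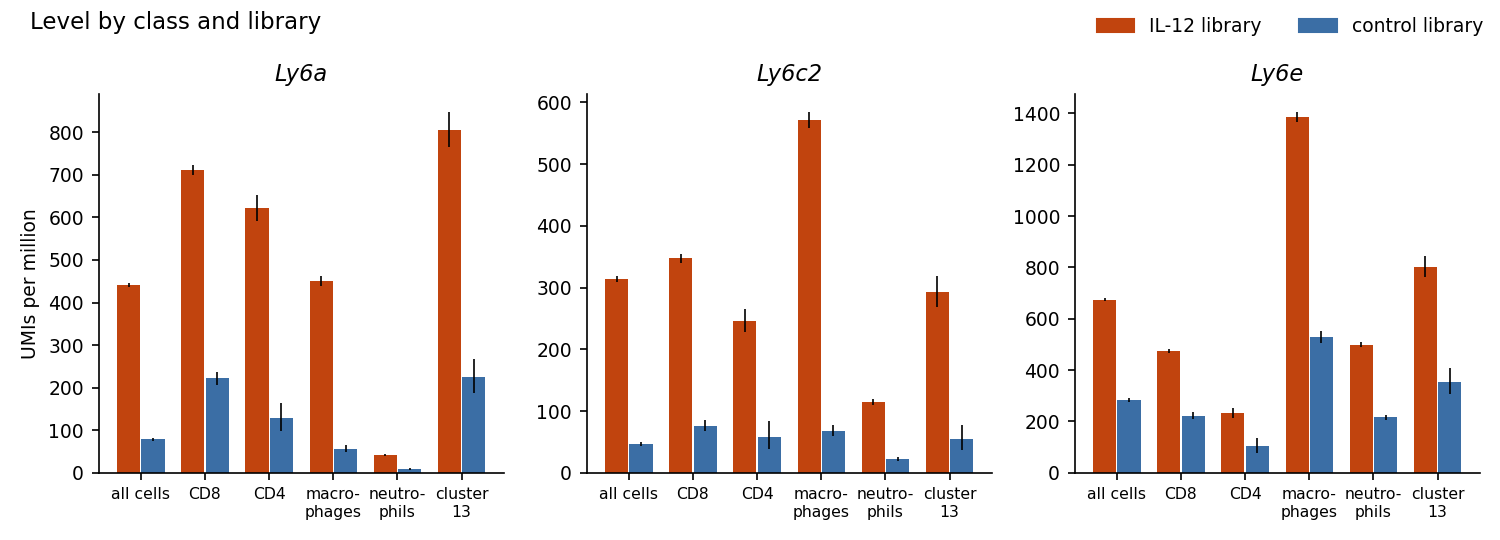
Level of each member in UMIs per 1000000 UMIs (vertical axis, from 0) in all sorted cells, in 4 of the authors' classes and in cluster 13, in the IL-12 library (left bars) and the control library (right bars); error bars are exact 95% Poisson intervals of counting error. In each group shown the IL-12 bar is the higher one, and macrophages have the highest Ly6e level, at 1386 CPM in the IL-12 library and 527 CPM in the control library.

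The members ranked the 4 large classes differently. In the IL-12 library Ly6a was highest in CD8 T cells, at 711 CPM (701 to 722), then CD4 T cells, at 621 CPM (591 to 652), macrophages, at 451 CPM (439 to 463), and neutrophils, at 41.5 CPM (38.7 to 44.6). The control library had the same order, with 222 CPM (207 to 237) in CD8 T cells, 129 CPM (99.2 to 164) in CD4 T cells, 56.6 CPM (49.1 to 64.8) in macrophages and 8.27 CPM (6.46 to 10.4) in neutrophils. No neighbours in that order had overlapping intervals in either library. Ly6e had another order: IL-12 macrophages stood at 1386 CPM (1365 to 1407), IL-12 neutrophils at 499 CPM (489 to 509.6), IL-12 CD8 T cells at 474 CPM (465 to 483) and IL-12 CD4 T cells at 233 CPM (215 to 253). In control cells the Ly6e intervals of CD8 T cells, 208 to 238 CPM, and of neutrophils, 207 to 227 CPM, overlapped. Ly6c2 was highest in IL-12 macrophages, at 572 CPM (558 to 585). In the control library its intervals in CD8 T cells, 68.0 to 85.5 CPM, macrophages, 59.9 to 77.1 CPM, and CD4 T cells, 39.1 to 83.8 CPM, overlapped.

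Within CD8 T cells, the cytotoxic T lymphocytes, 3264 IL-12 and 649 control cells were compared. Ly6a was 3.21-fold (3.00 to 3.44) higher in the IL-12 library. Ly6c2 stood at 348 CPM in IL-12 cells and 76.4 CPM in control cells, a ratio of 4.55-fold (4.06 to 5.12). Ly6e, at 474 CPM in IL-12 cells and 223 CPM in control cells, differed 2.13-fold (1.99 to 2.28). All 3 were among the 12.2% of measured genes at least 1.5-fold higher in these cells, where 38.0% were at least 1.5-fold lower. The defining genes of the class were present in both libraries: the 6 measured T cell markers belong to a list that summed to 4560.3 CPM in IL-12 cells and 3126 CPM in control cells, and Cd8a with Cd8b1 summed to 1781 CPM in IL-12 cells and 1139 CPM in control cells. Neutrophil markers, of another cell type, summed to 10676 CPM in IL-12 and 7233 CPM in control CD8 T cells, with 2 of 7 measured ones higher and 1 lower, and their part in the Ly6 ratios was not tested.

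More CD8 T cells carried each transcript. With every cell thinned to 1000 UMIs, Ly6a was seen in 33.0% (31.4 to 34.6) of IL-12 CD8 cells and 14% (11.4 to 16.9) of control CD8 cells. Ly6c2 was seen in 20.5% (19.2 to 22.0) of IL-12 cells and 6.16% (4.44 to 8.30) of control cells, while Ly6e was seen in 29.1% (27.5 to 30.7) of IL-12 cells and 15.1% (12.4 to 18.1) of control cells. At full depth, with medians of 6434 UMIs in IL-12 and 5794 UMIs in control CD8 cells, Ly6a was seen in 64.1% of IL-12 cells and 28.0% of control cells. Neutrophils, the class lowest in Ly6a, gave thinned shares of 3.74% (3.26 to 4.26) in the IL-12 library and 0.804% (0.499 to 1.23) in the control library, from median depths of 2553 UMIs in IL-12 and 2524 UMIs in control neutrophils.

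The CD8 comparison sets different clusters side by side. Cluster 5 held 2488 IL-12 cells and 21 control cells, and cluster 8 held 67 IL-12 cells and 572 control cells. Set against each other directly, IL-12 cluster 5 over control cluster 8 gave 3.69-fold (3.42 to 3.98) for Ly6a, 5.39-fold (4.73 to 6.16) for Ly6c2 and 2.16-fold (2.0 to 2.33) for Ly6e, where 13.1% of measured genes were at least 1.5-fold higher. The few control cells inside cluster 5 did not show that pattern, but they were of mixed class. The authors called 13 of the 21 CD8 T cells, 7 neutrophils and 1 a macrophage. All 2488 IL-12 cells of the cluster were called CD8 T cells. Ly6a stood at 796 CPM (782 to 809) in IL-12 cells of cluster 5, beside 676 CPM (555 to 816, 108 UMIs) in its control cells, a ratio of 1.18-fold (0.97 to 1.44). Ly6e stood at 462 CPM (452 to 472) in IL-12 cells and 476 CPM (375 to 595) in control cells of cluster 5, a ratio of 0.97-fold (0.78 to 1.23). Ly6c2 was the member whose intervals stayed apart there, with 385 CPM (376 to 394) in IL-12 cells and 138 CPM (86.3 to 208, 22 UMIs) in control cells. The few IL-12 cells of cluster 8 held 442 CPM (369 to 526) of Ly6a, against 216 CPM (200.3 to 232) in the control cells of that cluster. Leaving clusters 8, 11 and 12 out of the CD8 class left 2498 IL-12 and 22 control cells, of which 2488 and 13 were in cluster 5. The log2 ratios were then 0.34 for Ly6a, 1.16 for Ly6c2 and 0.099 for Ly6e, against 1.68, 2.17 and 1.09 with them. Without cells that also held markers of another class they were 0.82, 0.87 and 1.0, which left out 55.4% of IL-12 and 94.6% of control CD8 cells.

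In CD4 T cells (998 IL-12 and 179 control cells), Ly6a was 4.82-fold (3.76 to 6.29) higher in the IL-12 library. Ly6c2 stood at 246 CPM in IL-12 cells and 58.4 CPM (29 UMIs) in control cells, a ratio of 4.21-fold (2.91 to 6.34). Ly6e stood at 233 CPM in IL-12 cells and 105 CPM in control cells, a ratio of 2.23-fold (1.68 to 3.02). All 3 were thus higher, as were 15.9% of measured genes. Without cells that also held markers of another class, 630 IL-12 and 14 control cells were left. These control cells held 5 UMIs of Ly6e, 2 of Ly6c2 and 0 of Ly6a, too few to read a ratio. From those 5 UMIs the log2 ratio of Ly6e came to 0.41, below 1.5-fold, against 1.15 with all cells of the class. No size is read from it. The class label holds only in part: Cd8a and Cd8b1 summed to 1019 CPM in IL-12 cells and 662 CPM in control cells of this class, while the helper T cell markers Cd4 and Cd40lg summed to 84.1 CPM in IL-12 cells and 94.6 CPM in control cells.

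Macrophages (1702 IL-12 and 574 control cells) had higher Ly6a and Ly6c2 ratios than CD8 T cells, CD4 T cells, neutrophils and cluster 13. Ly6a stood at 451 CPM in IL-12 macrophages, against 56.6 CPM in control macrophages, a ratio of 7.97-fold (6.93 to 9.20). For Ly6c2, with 572 CPM in IL-12 macrophages and 68.1 CPM in control macrophages, the ratio was 8.39-fold (7.39 to 9.57). Ly6e differed 2.63-fold (2.51 to 2.76). Ly6c2 ranked 4 and Ly6a 6 of 6328 measured genes by ratio, all 3 members were higher, and 10.8% of genes were. T cell transcripts moved with these values. All 6 of 6 measured T cell markers were at least 1.5-fold higher, the list summed to 392 CPM in IL-12 macrophages and 86.2 CPM in control macrophages, and their part in the Ly6a and Ly6c2 ratios was not tested. The macrophage markers summed to 7572 CPM in IL-12 and 11568 CPM in control macrophages, with 1 of 9 higher and 3 lower. Without cells that also held markers of another class, 625 IL-12 and 29 control macrophages were left, with 1 UMI of Ly6a and 0 of Ly6c2 in the control cells, too few to read a ratio.

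Neutrophils (5908 IL-12 and 2721 control cells) had the least Ly6a. It stood at 41.5 CPM in IL-12 and 8.27 CPM in control neutrophils, 5.02-fold (3.94 to 6.5). Ly6c2 stood at 115 CPM in IL-12 and 22.5 CPM in control neutrophils, 5.13-fold (4.42 to 5.97). Ly6e stood at 499 CPM in IL-12 and 216 CPM in control neutrophils, 2.31-fold (2.19 to 2.43). All 3 were higher, as were 11.1% of measured genes, while 40.0% were at least 1.5-fold lower. Ly6a and Ly6c2 counted as measured here only through the IL-12 library. They were found in 9.41% and 14.6% of IL-12 neutrophils and in 2.39% and 4.70% of control neutrophils. Low levels in a droplet library can come from free RNA, and T cell genes give a gauge of it. In the IL-12 library the neutrophil levels of Cd3e, Cd8a and Cd8b1 were 2.35%, 2.04% and 1.93% of those in CD8 T cells, and in the control library 1.50%, 0.696% and 0.916%. Ly6a in neutrophils was at 5.84% of its CD8 level in the IL-12 library and 3.73% in the control library. For Ly6c2 the same share was 33.2% in the IL-12 library and 29.4% in the control library, and for Ly6e 105% in the IL-12 library and 97.3% in the control library. This gauge is scaled to CD8 T cells, and the part of free RNA from other cells that hold these transcripts was not tested. With a pseudocount of 10 CPM the log2 ratio of Ly6a in neutrophils was 1.50, against 2.20 with 1 CPM. Neutrophil RNA was also counted in T cells: the CD8 T cell levels of the calprotectin genes S100a8 and S100a9 were 11.2% and 9.85% of the neutrophil levels in the IL-12 library and 5.45% and 5.50% in the control library. The share of CD8 cells with a UMI had the other order. It was 55.9% for S100a8 and 67.0% for S100a9 in the IL-12 library, against 95.5% and 96.5% in the control library.

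Cluster 13, called B cells by the authors, had B cell genes together with mast cell and epithelial markers among its leading genes in the IL-12 library and with dendritic cell markers in the control library, and is named by number. Its 267 IL-12 cells held 806 CPM (765 to 849) of Ly6a, against 225 CPM (188 to 267) in its 95 control cells, a ratio of 3.58-fold (2.99 to 4.32). Ly6c2 differed 5.41-fold (3.77 to 8.05) and Ly6e 2.27-fold (1.96 to 2.64), so all 3 were higher, as were 18.8% of measured genes. As a mean of CPM over cells the log2 ratio of Ly6e was 1.83, against 1.18 from summed UMIs. Without cells that also held markers of another class, 4 control cells were left, too few to read a ratio. The cells called DCs numbered 842 in the IL-12 library and 14 in the control library, and their main cluster had no DC marker among its 10 leading genes. Ly6c2 stood at 368 CPM (339 to 399) in the IL-12 cells of that class and had 0 UMIs in the control cells. Against a floor of 3 counts in those cells its ratio was 4.08-fold, and the exact interval of the ratio began lower, at 3.31-fold. Ly6a differed 3.67-fold (1.43 to 13.5), with 4 UMIs in the control cells, and Ly6e 2.41-fold (1.37 to 4.67), with 12. By ratio Ly6a ranked 755 and Ly6e 921 of 3361 genes measured in that class, whose median log2 ratio was 0.37.

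The members had one direction in the 10 clusters with at least 50 cells in both libraries, and the sizes varied. The Ly6a ratio lay between 2.05-fold (1.68 to 2.48) in cluster 8 and 8.13-fold (7.02 to 9.45) in cluster 6, the macrophage cluster with Fn1 among its leading genes. By ratio Ly6a ranked 262 of 5676 measured genes in cluster 8 and 7 of 6940 in cluster 6. In cluster 2 the Ly6a ratio, 7.16-fold (2.74 to 26.6), rested on 4 UMIs in the control cells. The Ly6c2 ratio was lowest in cluster 2, a cluster of the neutrophil class, at 2.20-fold (1.34 to 3.84), and highest in cluster 14, at 8.92-fold (6.69 to 12.1). Ly6c2 ranked 87 of 2660 measured genes in cluster 2 and 3 of 2360 in cluster 14. Cluster 14 is led by Camp, Ngp and Ltf, granule protein genes made by young neutrophils. Its 117 IL-12 cells held 366 CPM (333 to 402) of Ly6c2, against 41.1 CPM (30.7 to 53.7) in its 192 control cells. Ly6a was below the measured level there, at 17.4 CPM (10.8 to 26.6, 21 UMIs) in IL-12 cells and 3.87 CPM (1.26 to 9.04, 5 UMIs) in control cells. The Ly6e ratio of cluster 14, 5.06-fold (4.10 to 6.30), was the highest of the 10, and cluster 2 had the lowest, 1.33-fold (1.13 to 1.58). Ly6e ranked 17 of 2360 measured genes in cluster 14 and 324 of 2660 in cluster 2. Within macrophages, cluster 10, led by the complement genes C1qa, C1qb and C1qc, held less Ly6c2 than cluster 6 and had fewer UMIs per cell. Its median depth was 1246 UMIs in IL-12 and 1190 UMIs in control cells. Its IL-12 cells stood at 85.1 CPM (66.8 to 107) of Ly6c2 and its control cells at 16.3 CPM (5.29 to 38.0, 5 UMIs), whereas cluster 6 stood at 614 CPM (599.6 to 629) in IL-12 cells and 73.1 CPM (64.2 to 82.9) in control cells. Ly6a stood nearer in these 2 clusters, at 346 CPM (308 to 387) in IL-12 cells of cluster 10 and 461 CPM (449 to 474) in IL-12 cells of cluster 6. Cluster 3, with 2606 IL-12 and 27 control cells, had too few control cells for this set. Ly6a stood at 39.3 CPM (34.6 to 44.5) in its IL-12 cells and 92.2 CPM (37.1 to 190.0, 7 UMIs) in its control cells. The ratio was 0.43 (0.20 to 1.07), an interval that holds 1. All its IL-12 cells were called neutrophils, but only 21 of its control cells were, so no direction is read there.

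**Figure D2:**
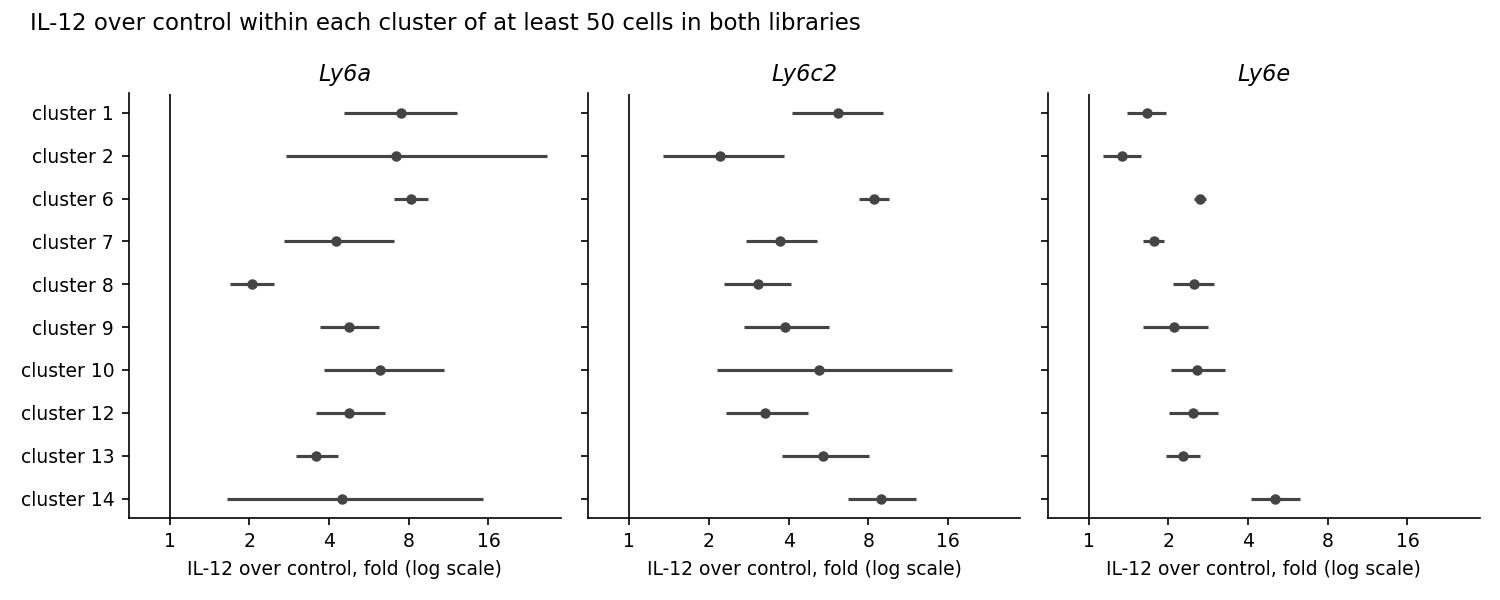
Ratio of the IL-12 level over the control level of each member (horizontal axis, log scale) in each of the authors' 10 clusters with at least 50 cells in both libraries; points are ratios of summed UMIs, bars exact 95% intervals of counting error, and the vertical line marks 1. All points lie right of the line, with Ly6e between 1.33-fold and 5.06-fold.

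The members were also counted among the genes higher in each of 5 groups of cells. Of 2533 genes measured in CD8 T cells, CD4 T cells, macrophages, neutrophils and cluster 13 alike, 9 (0.355%) were at least 3-fold higher in the IL-12 library in all 5. Ly6a and Ly6c2 were 2 of them. The others were Gpx4, a glutathione peroxidase, H2-T10, a class Ib histocompatibility gene, Mcpt2, a mast cell protease, H3f3c, Zbed5 and the pseudogenes Atp6v0c-ps2 and Tpt1-ps6. At 2-fold, 28 genes (1.11%) met the rule, with all 3 members among them. In neutrophils Ly6a and Ly6c2 counted as measured only through the IL-12 library, where they were higher. No rarity is therefore read from these counts.

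Ly6c2 and its near-copy Ly6c1 were not higher by the same factor. Ly6c1 stood at 351 CPM in IL-12 cells and 105 CPM in control cells, a ratio of 3.33-fold (3.17 to 3.49). Of the UMIs counted for either gene, Ly6c2 took 47.2% (46.8 to 47.7) in the IL-12 library and 30.6% (28.8 to 32.4) in the control library. The share was much alike across classes inside a library. In IL-12 cells it was 47.0% (46.2 to 47.7) in CD8 T cells, 44.6% (42.0 to 47.2) in CD4 T cells, 47.9% (47.1 to 48.8) in macrophages and 47.4% (45.9 to 48.8) in neutrophils. In control cells it was 30.2% (27.4 to 33.1) in CD8 T cells, 32.6% (23.0 to 43.3) in CD4 T cells, 31.5% (28.3 to 34.9) in macrophages and 31.6% (27.9 to 35.4) in neutrophils. The intervals of the 2 libraries were apart in CD8 T cells, macrophages and neutrophils and overlapped in CD4 T cells. Whether reads of one near-copy were counted for the other was not tested.

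**Figure D3:**
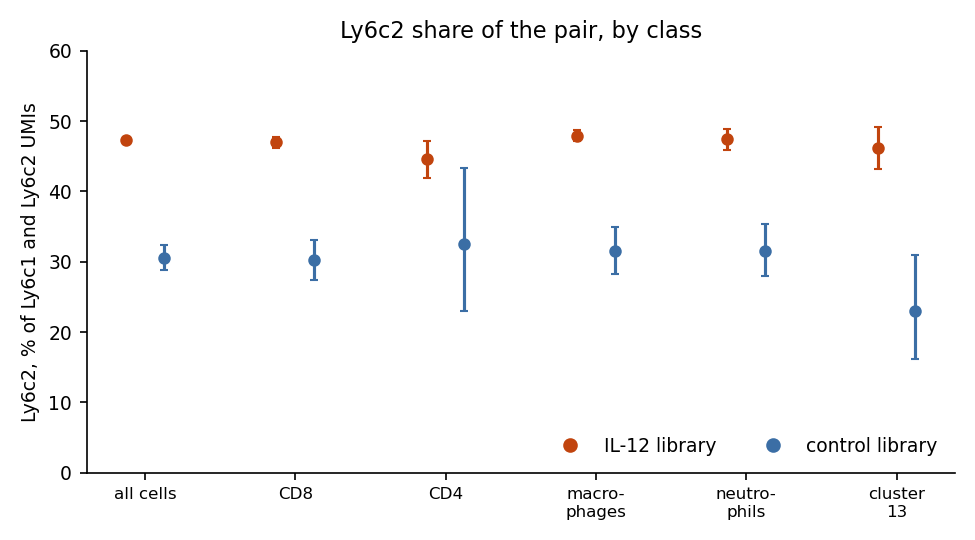
Share of the UMIs counted for Ly6c1 or Ly6c2 that were counted for Ly6c2 (vertical axis, percent) by class, in the IL-12 library (left points) and the control library (right points); bars are exact 95% binomial intervals. In all sorted cells the points lie at 47.2% in the IL-12 library and 30.6% in the control library.

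Other members of the Ly6/uPAR family did not share one direction. Of a list of 36, 10 were in the tables and 5 were measured over all sorted cells: 2 were higher and 1 lower, where 24.3% of all measured genes were lower, and the median log2 ratio was -0.30, beside -0.11 for all measured genes. Ly6c1 and Ly6i were the higher ones. Ly6i stood at 52.6 CPM in IL-12 cells and 16.5 CPM in control cells, 3.19-fold (2.82 to 3.61). It lies next to Ly6a on the chromosome, and 4.8% of its first windows occur in Ly6a. Ly6g, the neutrophil surface marker encoded beside Ly6c2, stood at 42.5 CPM in IL-12 and 52.3 CPM in control cells. Plaur, the urokinase receptor, stood at 1216 CPM in IL-12 and 1531 CPM in control cells. Cd177, a neutrophil adhesion protein, was the lower one, at 42.1 CPM in IL-12 and 175 CPM in control cells, a ratio of 0.24 (0.23 to 0.25). Within neutrophils the Cd177 ratio was 0.31 (0.29 to 0.33), and Ly6g stood at 116 CPM in IL-12 and 101 CPM in control cells. Ly6d and Ly6g5b were below the measured level, with 262 and 224 UMIs in the IL-12 library and 70 and 47 UMIs in the control library.

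Other interferon response genes were read the same way, in lists that leave the members out. Of the type I interferon list, 15 of 17 measured genes were higher and 1 lower in IL-12 CD8 T cells, with a median log2 ratio of 1.30, beside -0.31 for all genes. Of all measured genes 12.2% were higher and 38.0% lower in these cells. Rsad2, an antiviral enzyme, had the highest ratio, at 121 CPM in IL-12 and 26.5 CPM in control cells, and Stat2, a signal carrier of that pathway, the lowest, at 33.2 CPM in IL-12 and 51.2 CPM in control cells. The interferon-gamma list had 9 of 22 higher and 1 lower in CD8 T cells, a median of 0.23. Cxcl10, a chemokine, led it with 31.9 CPM in IL-12 cells and 5.29 CPM (21 UMIs) in control cells. In macrophages 16 of 24 interferon-gamma genes were higher and 0 lower, a median of 0.97, and 13 of 19 type I genes were higher and 0 lower, a median of 0.81, beside -0.11 for all genes, of which 10.8% were higher and 20.8% lower. Iigp1, an interferon-inducible GTPase, stood at 79.9 CPM in IL-12 and 13.5 CPM in control macrophages. In neutrophils 11 of 21 interferon-gamma genes were higher and 1 lower, a median of 0.59, and 14 of 17 type I genes were higher and 1 lower, a median of 1.26. The median over all genes was -0.39 there, with 11.1% of them higher and 40.0% lower. Gbp4, another such GTPase, stood at 269 CPM in IL-12 and 23.6 CPM in control neutrophils, 11.4-fold (9.89 to 13.2).

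The receptor genes upstream and the genes that build the lipid anchor were read against the background of CD8 T cells, where 12.2% of all measured genes were higher and 38.0% lower, with a median log2 ratio of -0.31. Of 10 interferon and IL-12 receptor and signalling genes, 0 were higher and 5 lower in IL-12 CD8 T cells, with a median log2 ratio of -0.60. Jak2, a kinase of the interferon-gamma receptor, stood at 61.9 CPM in IL-12 and 158 CPM in control cells, and Ifnar2, a type I interferon receptor chain, at 70.7 CPM in IL-12 and 53.7 CPM in control cells. Of 18 measured genes for making and attaching GPI anchors, 2 were higher and 5 lower in CD8 T cells, a median of -0.26. Dpm2, a subunit of the mannose donor synthase, stood at 34.4 CPM in IL-12 and 19.2 CPM in control cells, and Piga, which acts in the first step of anchor synthesis, at 6.13 CPM in IL-12 and 16.1 CPM in control cells.

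The members were then set against each other within single cells after thinning, a description of cells that share a library. In IL-12 CD8 T cells Ly6a and Ly6c2 were often seen together. Ly6a had a UMI in 55.4% (51.5 to 59.2) of 670 cells with Ly6c2 and in 27.2% (25.5 to 29.0) of 2594 cells without it, at median depths of 6410 UMIs with and 6435 UMIs without. Ly6e was seen in 31.5% (28.0 to 35.2) of cells with Ly6c2 and 28.5% (26.7 to 30.2) of cells without, and these intervals overlap. In IL-12 macrophages Ly6e was seen in 82.4% (78.4 to 85.9) of 421 cells with Ly6c2 and 51.5% (48.5 to 54.4) of 1131 cells without. Ly6a was seen in 27.1% (22.9 to 31.6) of macrophages with Ly6c2 and 23.0% (20.6 to 25.6) of those without. The member seen more often with Ly6c2 was thus Ly6a in these CD8 T cells and Ly6e in these macrophages. The median depth of the macrophages was 9237 UMIs with Ly6c2 and 6816 UMIs without. Levels of Ly6a and Ly6c2 also varied together between CD8 clones, as given below, and both genes share windows with Ly6c1. The part of clones and of shared windows in the CD8 pairing was not tested. In control CD8 T cells, Ly6a was seen in 37.5% (22.7 to 54.2) of 40 cells with Ly6c2 and 12.5% (9.96 to 15.4) of 609 cells without.

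Macrophages with Ly6c2 held more monocyte and less macrophage RNA than those without. In the IL-12 library 5 of 9 monocyte markers were higher and 2 lower in cells with Ly6c2, where 2.95% of measured genes were higher and 8.63% lower. Plac8, a monocyte transcript, stood at 2806 CPM in cells with Ly6c2 and 1155 CPM in cells without, and Ccr2, the chemokine receptor of inflammatory monocytes, at 213 CPM with and 113 CPM without. Fn1, the fibronectin gene, ran the other way, at 366 CPM in cells with Ly6c2 and 755 CPM in cells without. Of 9 macrophage markers, 0 were higher and 7 lower in cells with Ly6c2. C1qa, a complement subunit, was at 248 CPM in cells with Ly6c2 and 1366 CPM in cells without. The groups sit in different clusters in part: cluster 10, led by complement genes, held 3.80% of the 421 cells with Ly6c2 and 31.4% of the 1131 without. Within cluster 6 alone, a split added after seeing the data, 5 of 9 monocyte markers were higher and 2 lower with Ly6c2, and 0 of 9 macrophage markers higher and 7 lower, where 2.43% of measured genes were higher and 9.65% lower. C1qa stood at 246 CPM with and 1264 CPM without Ly6c2 in that cluster, and Plac8 at 2803 CPM with and 1248 CPM without. A split by Ly6a gave other counts. With Ly6a, 1 of 9 macrophage markers was higher and 0 lower, and 2 of 9 monocyte markers were higher and 3 lower, where 4.08% of measured genes were higher and 2.46% lower. C1qb, another complement subunit, stood at 1148 CPM in macrophages with Ly6a and 737 CPM in those without. Cluster 10 held 23.5% of the cells with Ly6a and 24.0% of those without. Within cluster 6 alone, 1 of 9 macrophage markers was higher and 0 lower with Ly6a, and 2 of 9 monocyte markers were higher and 3 lower, where 4.47% of measured genes were higher and 3.67% lower. T cell markers were higher in macrophages with Ly6a for 3 of 6 genes, summing to 521 CPM with and 346 CPM without, and regulatory T cell markers for 5 of 5. Their part in these values was not tested.

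CD8 T cells with a Ly6 transcript held more granzyme RNA of some kinds. Gzmb, a granzyme of killer cells, stood at 2168 CPM in IL-12 CD8 cells with Ly6c2 and 1148 CPM in those without, 1.89-fold (1.84 to 1.93). With the split made by Ly6a it stood at 2156 CPM with and 956 CPM without. Of the cytotoxic list, 3 of 11 genes were higher and 1 lower with Ly6c2, where 1.13% of measured genes were higher and 2.57% lower. With Ly6a 4 were higher and 2 lower, where 1.33% of measured genes were higher and 2.42% lower. Gzma ran the other way with Ly6a, at 465 CPM in cells with it and 736 CPM in cells without. Of 9 proliferation genes, 0 were higher and 5 lower in cells with Ly6c2, among them Mki67, a marker of dividing cells, at 22.6 CPM with and 50.9 CPM without. With Ly6a, 0 of 9 were higher and 0 lower. The type I interferon list had 9 of 17 genes higher and 1 lower with Ly6a, and 4 higher and 0 lower with Ly6c2. Mx1, an antiviral GTPase, stood at 2.66-fold (2.05 to 3.46) by Ly6a and 2.19-fold (1.67 to 2.85) by Ly6c2. T cell clones, described below, differed in how often these transcripts were seen, so cells with and without them differ in clone makeup. After thinning, Ly6a was seen in 49.6% of clonotype 1 cells and 8.14% of clonotype 3 cells. The part of clone makeup in these values was not tested.

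A clone is a set of T cells with the same receptor, and a large clone has divided many times. Clones were taken from the clone column of the expression tables, and size is the number of cells with that clone in the library. The IL-12 library had 2817 CD8 T cells with a clone, of which 75.1% were in clones of at least 20 cells, and the control library had 449, of which 28.1% were. In IL-12 CD8 cells, Ly6c2 stood at 521 CPM (493 to 551) in clones of 1 cell, 407 CPM (372 to 445) in clones of 2 to 4 cells, 405 CPM (373 to 438) in clones of 5 to 19 and 327 CPM (318 to 336) in clones of at least 20. The interval of clones of 1 cell lay above and that of the largest clones below all others. Ly6a stood at 883 CPM (846 to 921), 891 CPM (838 to 945), 846 CPM (800.0 to 893) and 694 CPM (680.3 to 707) in the same order of sizes, and the interval of its largest clones lay apart. Ly6e stood at 552 CPM (523 to 583), 506 CPM (467 to 548), 498 CPM (463 to 535) and 479 CPM (468 to 489.9). Within cluster 5 alone the order of Ly6c2 was the same, with 643 CPM, 478 CPM, 446 CPM and 347 CPM.

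Clones of at least 5 cells over clones of 1 cell gave, in the IL-12 library, ratios of 0.80 (0.77 to 0.84) for Ly6a, 0.64 (0.60 to 0.68) for Ly6c2 and 0.87 (0.82 to 0.92) for Ly6e. Of the members 1, Ly6c2, was at least 1.5-fold lower in that comparison, as were 9.46% of measured genes. These values moved with single clones. Without clonotype 1, which held 623 CD8 cells, the log2 ratios were -0.72 for Ly6a, -1.0 for Ly6c2 and -0.52 for Ly6e, against -0.32, -0.64 and -0.20 with it. Without clonotype 2, the largest clone over all cells of the library (669 cells, 590 of them CD8 T cells), they were -0.15, -0.46 and -0.020. For Ly6c2 the mean over clones was -0.28 and the receptor table's size classes gave -0.52, so that it was not 1.5-fold lower in either, nor without clonotype 2. Naive and memory T cell genes differed along the same axis: 7 of 9 were lower and 0 higher in the larger clones, with a median log2 ratio of -2.26, beside -0.013 for all genes. Of the type I interferon list 2 of 17 were lower and 0 higher, where 6.94% of measured genes were higher.

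In the control library Ly6a stood at 310.1 CPM (274 to 350.0) in clones of 1 cell, 229 CPM (191 to 273) in clones of 2 to 4, 319.8 CPM (281 to 363) in clones of 5 to 19 and 79.5 CPM (60.7 to 102) in the 2 clones of at least 20 cells. Ly6c2 stood at 95.9 CPM (76.1 to 119), 69.1 CPM (48.9 to 94.8), 103 CPM (81.1 to 128) and 9.28 CPM (3.73 to 19.1, 7 UMIs) in that order. Ly6e stood at 229.6 CPM (198 to 264), 345 CPM (298 to 398), 289.5 CPM (253 to 330.4) and 175 CPM (146 to 207). For each member the lowest bin was that of the 2 largest clones. Clones of at least 5 cells over clones of 1 cell gave 0.65 (0.55 to 0.76) for Ly6a, 0.59 (0.43 to 0.80) for Ly6c2 and 1.01 (0.85 to 1.21) for Ly6e, and Ly6a and Ly6c2 were thus at least 1.5-fold lower, as were 6.74% of measured genes. Without the largest control clone the log2 ratios were -0.22 for Ly6a, -0.16 for Ly6c2 and 0.16 for Ly6e, against -0.63, -0.76 and 0.018 with it. As a mean over clones, each clone weighing the same, they were 0.090, 0.18 and 0.40, so the control direction for Ly6a and Ly6c2 reversed. With clones joined by beta chain they were -0.22, -0.43 and -0.072, and none was 1.5-fold lower. For clones of at least 2 cells Ly6a was at -0.58, short of it as well.

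**Figure D4:**
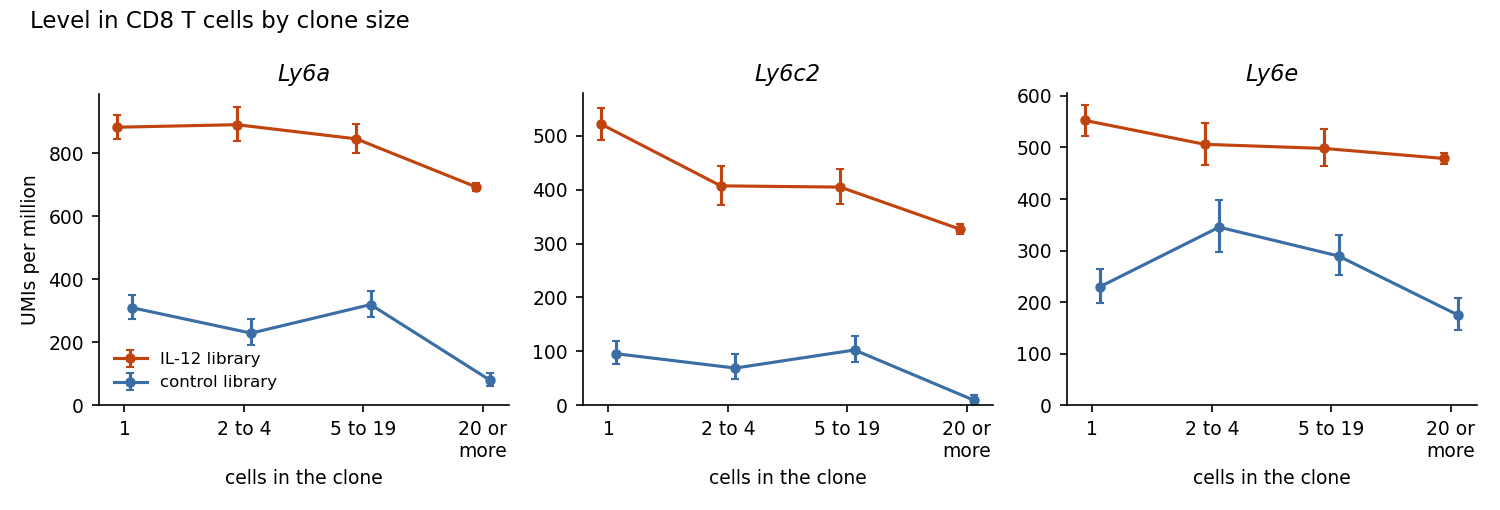
Level of each member in CD8 T cells (vertical axis, UMIs per 1000000, from 0) by the number of cells in the clone (horizontal axis), for the IL-12 library and the control library; bars are exact 95% Poisson intervals of counting error. The IL-12 points lie above the control points in every bin, and the control points for clones of at least 20 cells, which are 2 clones, are lowest.

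Single clones spanned a wider range than the size bins. Of 10 IL-12 clones with at least 30 CD8 cells, clonotype 1 had the most Ly6a, at 1102 CPM (1073 to 1132, 623 cells), and clonotype 3 the least, at 165 CPM (147 to 185, 258 cells). Clonotype 2, close in size to clonotype 1, stood at 427 CPM (407 to 448, 590 cells). The small clonotypes 8 and 10 reached 1017 CPM (900.2 to 1144, 39 cells) and 1062 CPM (936 to 1201, 34 cells). Clone size and level were thus not ordered alike among these 10. Ly6c2 lay between 54.7 CPM (44.4 to 66.7) in clonotype 3 and 757 CPM (651 to 876) in clonotype 10, and Ly6e between 173 CPM (133 to 220.4) in clonotype 5 and 792 CPM (689.6 to 905) in clonotype 8. After thinning, Ly6a was seen in 49.6% of the cells of clonotype 1 and 8.14% of those of clonotype 3. Cluster 5 held 82.5% of clonotype 1 and 80.2% of clonotype 3, and within the cluster holding most of each clone Ly6a stood at 1206 CPM in clonotype 1 and 184 CPM in clonotype 3. All 10 IL-12 clones had more Ly6a than both control clones of that size, of which the higher stood at 86.6 CPM (63.8 to 115). Since the mice were pooled, a clone and the mouse it came from cannot be told apart.

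**Figure D5:**
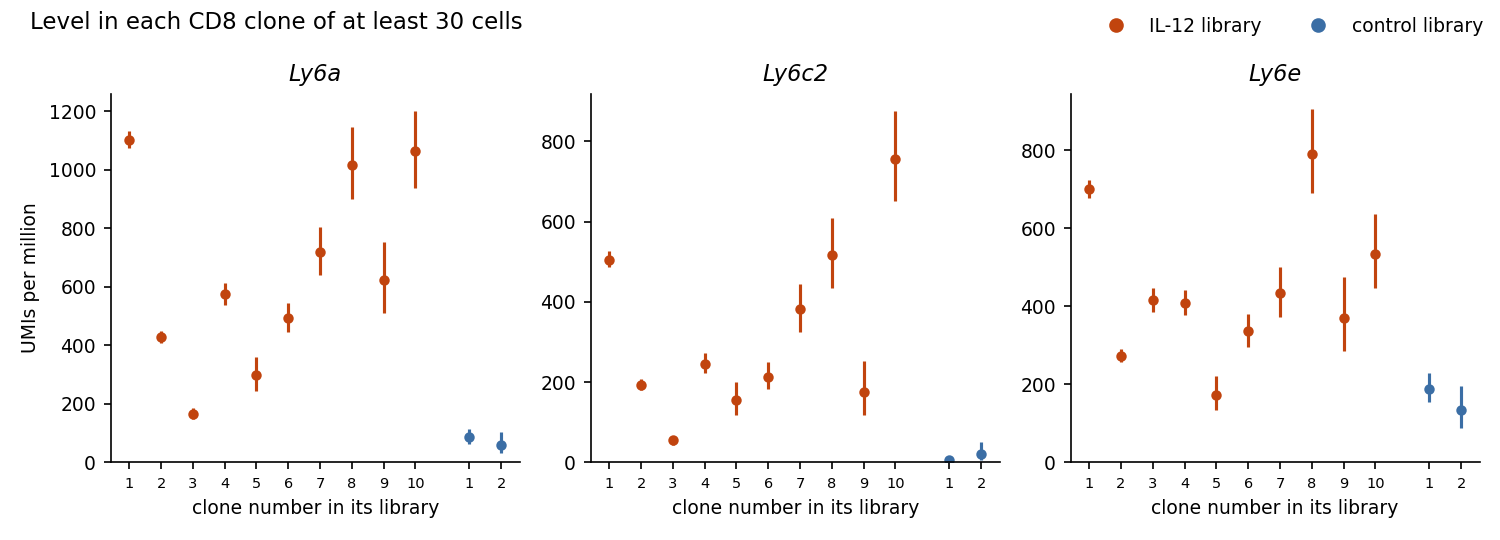
Level of each member (vertical axis, UMIs per 1000000, from 0) in each clone with at least 30 CD8 T cells, numbered as in its library: 10 clones of the IL-12 library on the left and 2 of the control library on the right; bars are exact 95% Poisson intervals of counting error. Ly6a and Ly6c2 are lowest in clonotype 3 among the IL-12 clones, and clonotypes 1, 8 and 10 are high for both.

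Ly6a and Ly6c2 ordered the 10 clones much alike. Across them Pearson's r of the log2 levels was 0.96 for Ly6a with Ly6c2 (Spearman's rho 0.89), 0.67 for Ly6a with Ly6e (rho 0.77) and 0.99 for Ly6c2 with Ly6c1 (rho 0.99). With the summed type I interferon list r was 0.76 for Ly6a, 0.72 for Ly6c2 and 0.67 for Ly6e. In that order r was 0.62, 0.71 and 0.47 with the interferon-gamma list and 0.49, 0.51 and 0.61 with the proliferation list. With the cytotoxic list r was -0.098, -0.14 and -0.51. With the number of cells in the clone it was -0.26 for Ly6a. These describe 10 clones that share a library and its depth. Set side by side as the extremes of Ly6a, clonotype 1 over clonotype 3 gave 6.67-fold (5.93 to 7.53) for Ly6a, 9.24-fold (7.54 to 11.4) for Ly6c2 and 1.69-fold (1.56 to 1.83) for Ly6e. The choice of the pair fixed the direction of Ly6a, and Ly6c2 follows Ly6a over these clones, so nothing is read from these ratios. Of all measured genes 6.59% were higher and 10.2% lower in clonotype 1. The pair also differed in Gzma, at 126 CPM in clonotype 1 and 2.82 CPM (5 UMIs) in clonotype 3, and in Ccr7, a lymph node homing receptor, at 4.85 CPM in clonotype 1 and 88.0 CPM in clonotype 3. Of the type I interferon list 6 of 17 genes were higher and 1 lower in clonotype 1, and of the exhaustion list 0 of 10 were higher and 0 lower.

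Cell cycle phase was taken from the authors' receptor table. In IL-12 CD8 cells Ly6a stood at 794 CPM (765 to 825) in G1, 724 CPM (707 to 741) in S and 731 CPM (710.2 to 752) in G2M. Ly6e was highest in G2M, at 602 CPM (584 to 621), with 469.8 CPM (447 to 493) in G1 and 426 CPM (413 to 439) in S. In control CD8 cells Ly6e stood at 264 CPM (233 to 298) in G1, 243 CPM (212 to 276) in S and 251 CPM (221 to 284) in G2M, and these intervals overlap. Control Ly6c2 stood at 86.3 CPM (68.8 to 107) in G1, 82.3 CPM (65.0 to 103) in S and 47.2 CPM (34.7 to 62.8) in G2M.

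The genes most like each member across clusters were found over 24 combinations of cluster and library with at least 50 cells, by Pearson's r of log2(CPM + 10) among 5293 genes. Ly6a was most like Edf1 (r = 0.96), Eef1a1 (r = 0.96), a translation factor, and Tmsb10 (r = 0.95), a thymosin. Ly6c2 was most like Ly6c1 (r = 0.96), then Gpx4 (r = 0.85) and Ilk (r = 0.85), an integrin-linked kinase. Ly6e was most like Cxcl9 (r = 0.80), an interferon-gamma-induced chemokine, Brk1 (r = 0.80) and Hax1 (r = 0.79). Among the members r was 0.73 for Ly6a with Ly6c2, 0.67 for Ly6c2 with Ly6e and 0.54 for Ly6a with Ly6e. In the 13 IL-12 clusters alone these were 0.51, 0.45 and 0.30. There r of Ly6a was 0.99 with Edf1, 0.98 with Eef1a1 and 0.97 with Tmsb10. For Ly6c2 it was 0.99 with Ly6c1, 0.59 with Gpx4 and 0.56 with Ilk. For Ly6e it was 0.80 with Cxcl9, 0.53 with Brk1 and 0.63 with Hax1. The points share 2 libraries, so a difference between libraries enters each of the values over all 24.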

How the data were processed

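Per the submitters' processing notes, Cell Ranger 2.1.0, STAR 2.6.1 and Partek (version not given in the sources used here) were used with mm10. The authors deposited, per library, a table of cells by genes in log2 of counts per 1000000 plus 1, a scale read from the values, with their cluster, class and clone columns, and a receptor table with a clone size class and cell cycle phase. UMIs were recovered by taking the smallest value above 0 in a cell as 1 UMI, and were whole within 0.1 except for 13 of 13883686 IL-12 and 6 of 4251108 control values. The tables' genes hold 70.4% of IL-12 and 72.9% of control UMIs, and levels use the full totals.

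Levels are summed UMIs per total UMIs. Ratios in log2 carry a pseudocount of 1 CPM. With 1 library per treatment no test was made. The receptor table gives no clone names, so clones come from the expression tables and its classes of above or below 10 cells serve as an alternative. All 3310 IL-12 and 483 control receptor cells were found by barcode. Thinning drew 1000 UMIs per cell at random and left out shallower cells (469 of 12979 IL-12 and 198 of 4232 control cells). No doublets were removed in the main values. The members and lists were chosen with earlier results of these data known. Named genes are the members, the 3 genes most like each, family members with at least 50 UMIs, and genes from the ends of a list's ratios; Ccr2, Fn1, C1qb, Gzma and Piga were picked after their values were seen. The calculation of intervals was checked on simulated CD8 counts, where 95.7% of 8780 genes had an interval holding the true ratio. These counts were drawn from the Poisson distribution that the intervals assume, without differences between cells or clones. The simulation therefore cannot show how well the intervals cover the spread in real cells. Python 3 with numpy, pandas, scipy and matplotlib was used. Some genes and a motif of the promoter search are not reported here. The receptor libraries' own reads were not analysed here.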

Additional observations from a re-analysis of the deposited data

How the results depend on the processing

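No paired analysis was possible because each treatment has 1 expression library and no result comes from a test. All values here are log2 ratios, given for Ly6a, Ly6c2 and Ly6e in that order. Across all alternatives run, each IL-12 over control ratio stayed above 0 in all sorted cells, the 4 large classes and cluster 13, though the control side held 0 UMIs in some of them once cells with markers of another class were left out. Over all sorted cells the values were 2.48, 2.73 and 1.24; they were 2.71, 2.78 and 1.24 as a mean of CPM over cells, 2.35, 2.52 and 1.21 with a pseudocount of 10 CPM, 2.53, 2.79 and 1.29 when scaled to the UMIs of the table's genes, 2.59, 2.84 and 1.35 minus the median of measured genes, 2.1, 2.58 and 1.28 with class weights and 1.85, 2.47 and 1.28 with cluster weights. Without cells holding markers of another class they were 4.14, 3.17 and 1.38. Of the cells then left, 2280 of 2361 control cells and 4635 of 7527 IL-12 cells were neutrophils, so the mix of cells differed. In CD8 T cells the values were 1.68, 2.17 and 1.09; the mean over cells gave 1.84, 2.26 and 1.11, the median subtracted 1.99, 2.48 and 1.40, leaving out cells with markers of another class 0.82, 0.87 and 1.0, and leaving out clusters 8, 11 and 12 0.34, 1.16 and 0.099.

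For clones of at least 5 cells over 1 cell the IL-12 values were -0.32, -0.64 and -0.20. They were -0.15, -0.46 and -0.020 without clonotype 2, -0.47, -0.85 and -0.30 within cluster 5, -0.16, -0.28 and -0.058 as a mean over clones and -0.36, -0.52 and -0.17 with the receptor table's size classes. Further settings were chosen after seeing the data: joining clones by beta chain gave -0.25, -0.61 and -0.087, and leaving out clonotype 1 gave -0.72, -1.0 and -0.52. The control values were -0.63, -0.76 and 0.018; they were -0.22, -0.16 and 0.16 without the largest clone, 0.090, 0.18 and 0.40 as a mean over clones, which reversed Ly6a and Ly6c2, -1.84, -2.74 and -0.49 with the receptor table's classes, -1.95, -3.24 and -0.39 for clones of at least 20 cells and -0.22, -0.43 and -0.072 joined by beta chain. The cause of these moves was not tested. Of the values that answer a comparison, 53 moved by less than their counting interval, 47 by more and 2 reversed. Depth limits the control library most, with 29 UMIs of Ly6c2 in its CD4 T cells and 7 in its largest clones.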
